A study of Mus musculus with 9 samples.

Results

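The genes described here are 36 genes of G2 and mitosis, the last stages of the cell cycle, among 27179 genes measured in bulk liver RNA. They were taken by gene symbol, as genes of known G2 and mitotic roles, and all 36 were found. A cell that has copied its DNA enters mitosis when A- and B-type cyclins activate the kinase Cdk1. Mitotic kinases, spindle motors and the anaphase-promoting complex then divide the chromosomes, and a contractile ring divides the cell. In resting cells these genes are held down by the DREAM repressor complex, and B-Myb and FoxM1 switch them on in G2. Most hepatocytes of an adult liver are quiescent, and many hold several genome copies.

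Cyclin D1, the product of Ccnd1, activates Cdk4 and Cdk6 to start the cell cycle, and the study targeted its gene in the hepatocytes of aged mice. C57BL/6J mice with the label WT for genotype were kept on normal chow and injected behind the eye at 17 months of age with AAV8, a liver-tropic viral vector, at 3e11 vector genomes per mouse. In every mouse the vector carried saCas9, a small Cas9 nuclease, under the hepatocyte promoter TBG, and a guide RNA under the U6 promoter. The guide cut Ccnd1 (sgCcnd1, n = 5) or, as control, the Rosa26 locus (sgRosa26, n = 4), and m-lobe tissue was frozen 3 weeks later. Cutting was thus limited to cells in which TBG is active, while RNA came from all cells of the lobe, so fewer dividing cells and less RNA per dividing cell cannot be told apart. Letters A to D name the sgRosa26 libraries and E to I the sgCcnd1 libraries, in table order. The sources used here name no sex, batch or harvest time and do not say whether each library is a separate animal, so p-values measure the spread between these libraries.

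Libraries held 10.8 M to 20.2 M reads assigned to genes, with A (12.2 M) and I (10.8 M) the shallowest. Ccnd1 itself had 684, 800, 625 and 867 normalized counts (reads scaled to a common depth) in A to D and 428, 347, 370, 339 and 325 in E to I. Every sgCcnd1 library lay below every control, and Ccnd1 fell by 1.03 (log2 scale, SE 0.11; adjusted p = 0.0116 by limma). It was the 1 gene of 12993 tested that passed an adjusted p of 0.05, or 0.00770% of genes. Its limma adjusted p exceeded 0.05 when library B (0.0852), D (0.0559), F (0.0589), H (0.0611) or I (0.0624) was left out. The hepatocyte markers, 6 of 6 with reads, summed to 1561000 to 2045000 normalized counts. Library H had 2.00 normalized counts of the Y-linked gene Ddx3y, against 810 to 1154 in the other 8 libraries.

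The promoters of these genes share sequence letters that the choice of members did not use. The CHR, or cell cycle genes homology region, is the element through which DREAM, B-Myb and FoxM1 complexes act, and it often lies near a CCAAT box, the site of the factor NF-Y. Windows of 300 bases, from 250 before to 50 after a gene's start, were available for 29 of the 36 members (RefSeq, GRCm38.p6). They were searched on both strands for the CHR forms TTTGAA and TTCGAA and for the box CCAAT, each also as its reverse complement. Matches that overlapped were both kept, which occurred in Ube2c alone, between CCAAT boxes on opposite strands. A CHR form was present in 23 of 29 members (79.3%) against 19.4% of the windows of 27025 genes. CCAAT was present in 24 of 29 (82.8%) against 37.9%, and both kinds together in 21 of 29 (72.4%) against 7.7%. In 21 members a CHR form lay within the 50 bases before the start or in the 50 after it. Birc5, Ccnb1, Cenpe, Cks2, Mybl2 and Nusap1 had no CHR form in this window. A match describes letters, not binding, and its absence concerns this window only.

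**Figure D1:**
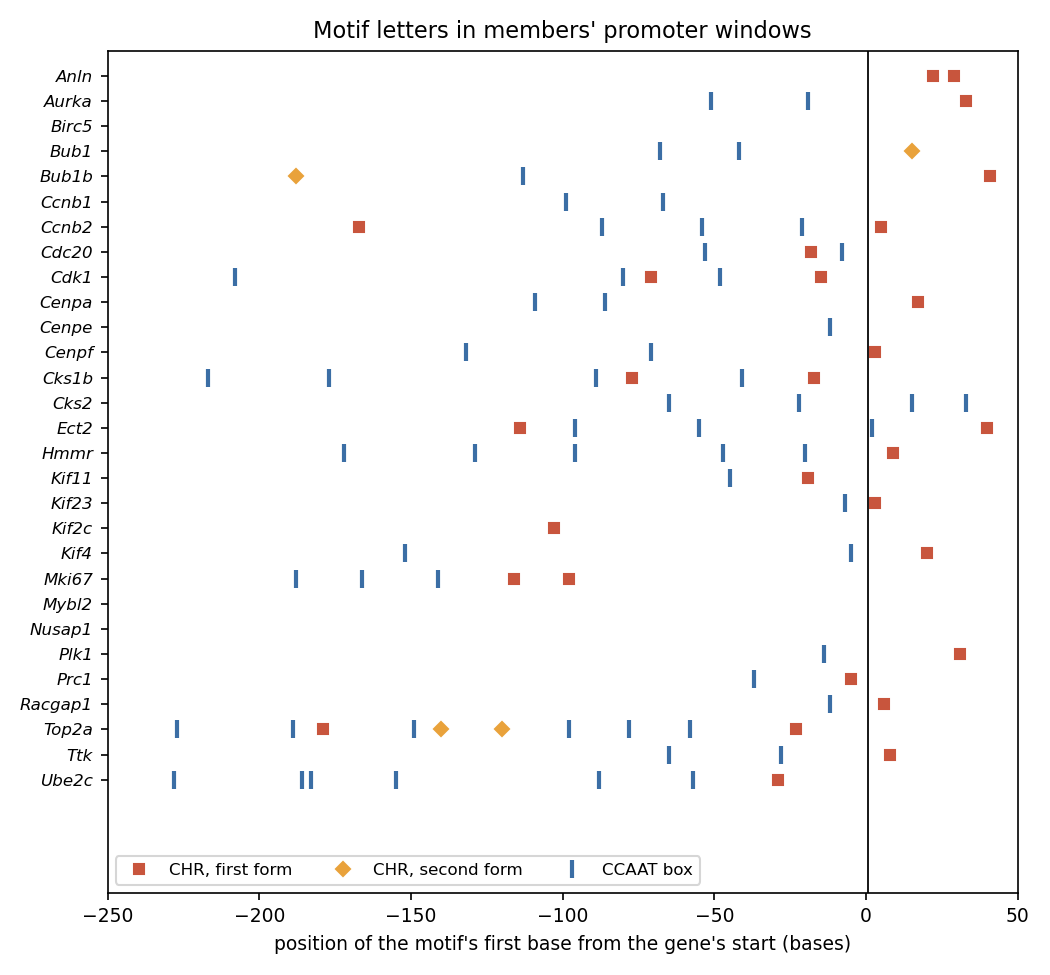
Positions of motif letters in the promoter windows of 29 members. The x axis gives the position of a motif's first base in bases from the gene's start (vertical line), squares (TTTGAA) and diamonds (TTCGAA) are CHR forms and blue ticks CCAAT boxes, on either strand, and a row with no symbol had no match; CHR forms stand in 23 members and cluster at the start, 21 of them within 50 bases before it or in the 50 after.

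The 100 bases before the start are shown for 5 members: Cdc20 and Cdk1, whose fold changes were furthest below 0 among the tested members, the DNA topoisomerase Top2a, the spindle motor Kif11, whose groups had nearly equal means, and Cks2, which has CCAAT boxes but no CHR form. They lie at chr4:118437344-118437443 (minus strand), chr10:69352913-69353012 (minus), chr11:99024190-99024289 (minus), chr19:37376282-37376381 (plus) and chr13:51645132-51645231 (plus) of GRCm38.p6. The start used for Top2a lies inside the span of the gene (chr11:98992947-99024199, GRCm38), so the last bases shown for it fall within that span. Sequences run 5′ to 3′ toward the gene, and capitals mark CHR forms and CCAAT boxes on either strand.
Cdc20: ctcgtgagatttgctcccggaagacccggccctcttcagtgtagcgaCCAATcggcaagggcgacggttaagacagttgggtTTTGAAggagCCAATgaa
Cdk1: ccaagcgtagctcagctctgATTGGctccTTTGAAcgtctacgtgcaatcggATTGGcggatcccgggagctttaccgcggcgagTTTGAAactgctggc
Top2a: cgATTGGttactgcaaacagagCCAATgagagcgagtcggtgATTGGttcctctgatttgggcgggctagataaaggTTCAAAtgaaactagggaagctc
Kif11: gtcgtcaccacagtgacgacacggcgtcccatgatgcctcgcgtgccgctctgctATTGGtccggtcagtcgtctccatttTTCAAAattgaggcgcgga
Cks2: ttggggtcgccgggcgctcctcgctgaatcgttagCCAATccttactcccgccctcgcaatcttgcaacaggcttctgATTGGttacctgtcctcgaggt
Among the bases shown, a CHR form begins 18 bases before the start in Cdc20, in Cdk1 at 71 and 15 bases before it, in Top2a at 23 and in Kif11 at 19.

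Transcripts of these genes were scarce in the aged liver. All 36 had reads in at least 1 library and 32 had reads in every library. Only 20 reached a mean of 10 normalized counts over the 9 libraries, the level set for testing, and 1, Cks2, reached 100. By group, 25 members had a mean of at least 10 in sgRosa26 and 15 in sgCcnd1. Of the 20 tested, 5 had a mean under 10 in sgCcnd1 and 0 in sgRosa26, so these 5 passed through the control level.

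Per kilobase of exon (GENCODE M21), the order of levels in sgRosa26 was led by the small Cdk1-binding proteins. Cks2 stood at 218 ± 69.7 normalized counts per kb (SD, n = 4) and Cks1b at 46.9 ± 17.3. The microtubule-destabilizing protein stathmin, Stmn1, had 30.5 ± 10.6 and the kinase gene Aurka 12.9 ± 4.01. The proliferation marker Mki67 stood far lower, at 3.83 ± 0.906, beside Top2a at 3.64 ± 1.70 and Cdk1 at 3.43 ± 1.31. At the bottom were Cenpf (0.396 ± 0.0785) and the phosphatase gene Cdc25c (0.183 ± 0.252). Of 35 pairs of neighbours in this order, 32 were closer than the larger of their SDs.

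Summed over the 36 genes, the libraries held 475, 928, 762 and 938 normalized counts in A to D, and 669, 676, 675, 562 and 514 in E to I. Control A stood lowest of all 9, and the other 3 controls stood above all 5 sgCcnd1 libraries, so the groups overlapped through A alone. The sum was 776 ± 216 in sgRosa26 (SD, n = 4) and 619 ± 76.2 in sgCcnd1 (SD, n = 5), 79.8% of the control mean and a log2 ratio of -0.33. It was -0.50 without A and -0.22 without D. The exact 95% Poisson interval, which covers counting error only, was 428 to 524 in A and 873 to 986 in B, so the gap between these controls exceeded counting error. Cks2 alone made up 15.8% to 27.3% of the sum. Together the members took 31.5 to 64.4 reads per M assigned reads.

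**Figure D2:**
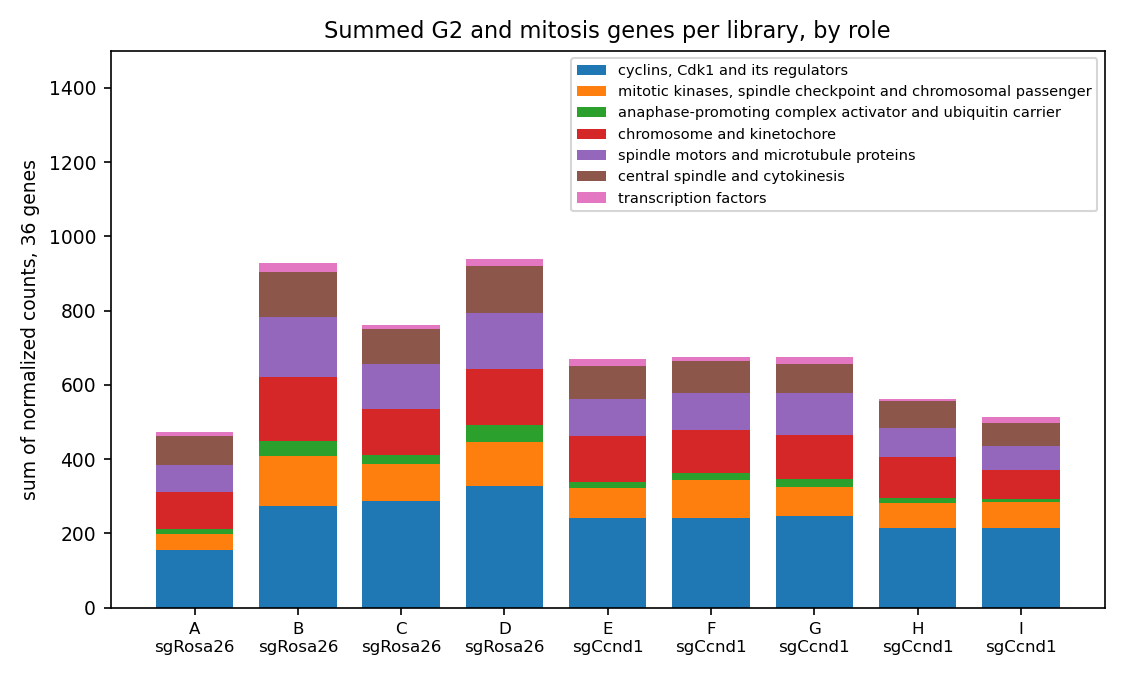
Sum of normalized counts of the 36 genes in each library, stacked by role. The x axis gives the 4 sgRosa26 and then the 5 sgCcnd1 libraries and the y axis the sum from 0; A is lowest at 475, B to D reach 762 to 938, and the sgCcnd1 libraries lie between 514 and 676.

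The same libraries stood at the ends for most single members. A held the lowest control value for 26 of the 36, and B or D the highest value of all 9 libraries for 27. H and I together held the lowest value of all 9 for 21. A and I were also the shallowest libraries, and A had the lowest T and NK marker sum (128 against 160 to 303) and erythroid marker sum (1163 against 1882 to 2443) among controls; their part in these values was not tested. Within groups, the variance of the members' reads was a median of 1.93 times that of counting alone in the 20 tested and 1.43 times in the 16 below the testing level. It ranged from 0.555 for Hmmr to 6.47 for Cks2 and was above 1 in 31 of 36.

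No member passed the test between groups. Of the 20 tested, 0 had a limma adjusted p under 0.05, against 0.00770% of all genes tested, and adjusted p-values ranged from 0.338 to 0.970. edgeR and DESeq2 on recovered reads also called 0 members, where edgeR called 0.00770% and DESeq2 0.800% of all genes. DESeq2 gave no adjusted p for Ccnb2, Kif23 and Racgap1, so it could not call these members. Without library H edgeR called 0.00% and DESeq2 0.292% of genes, and again 0 members. At an unadjusted limma p under 0.05 there were 4 of 20, or 20%, against 11.0% of all genes, and all 4 had lower means in sgCcnd1 (all genes: 5.74% lower). Log2 fold changes were below 0 for 17 of 20 (85.0%), against 47.1% of all genes, with a median of -0.37 against 0.01. The median was -0.64 without A and -0.17 without B. Over all 36, 31 had a lower mean in sgCcnd1. These members share libraries and a common programme and are not independent, and their count is a description. These counts and the median include the 5 members that passed through the control level (Ccnb2, Cdc20, Cdk1, Kif23 and Racgap1), and Cdc20 and Cdk1 are among the 4. Over the 15 members whose mean reached 10 in both groups, 2 (Kif20a and Prc1, 13.3%) had an unadjusted limma p under 0.05, against 10.7% of the genes chosen likewise. Of these 15, 12 had a log2 fold change below 0 (against 46.6%), with a median of -0.27. Counted in either direction, the share at an unadjusted p was thus near that of the genes chosen likewise. Kif20a and Prc1 were both lower, and the share of lower genes alone was not computed for this choice.

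Precision limited what could be seen at these levels. The median standard error of a log2 fold change was 0.32 over the tested members against 0.13 over all genes tested. The 95% interval spanned 0 for 16 of 20 and reached a 2-fold fall for 12, and it lay within 2-fold either way for 7. The unadjusted count depended on single libraries: 9 of 20 without A (12.7% of all genes), 2 of 19 without B (7.86%), 0 of 20 without D (11.2%) and 2 of 21 without I (9.0%). It was 3 of 21 without C (10.8%), 5 of 21 without E (12.2%), 3 of 20 without F (10.7%), 4 of 21 without G (9.38%) and 3 of 21 without H (8.01%).

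**Figure D3:**
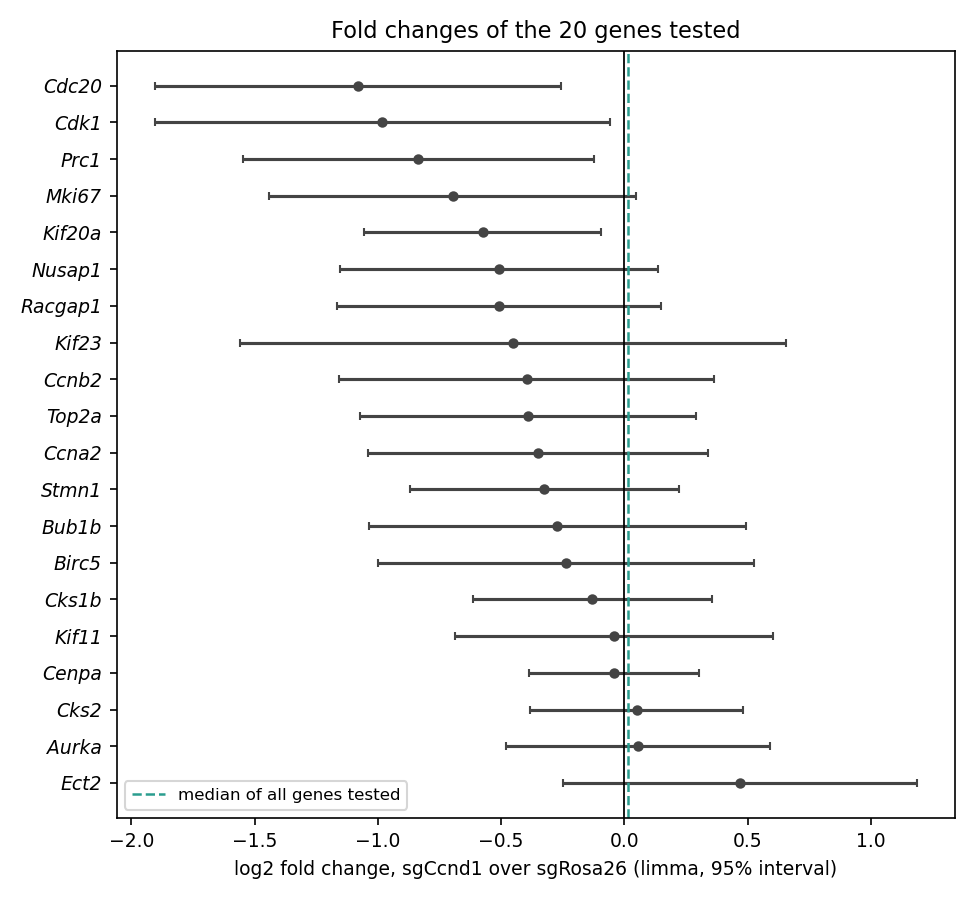
Log2 fold change of the 20 genes tested, sgCcnd1 over sgRosa26, from limma. Points are estimates, bars 95% intervals, the black line 0 and the dashed line the median of all genes tested (0.01); 17 points lie below 0, from -1.08 for Cdc20, and 16 bars span 0.

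Among the cyclins, Cdk1 and its partners (5 of 7 tested, 0 called, Cdk1 and Ccnb2 passing through the control level), Cdk1, the kinase that drives entry into mitosis, lies at chr10:69335146-69352912 (GRCm38). It had 7.38, 19.3, 21.6 and 19.4 normalized counts in A to D and 16, 8.95, 8.81, 4.0 and 4.26 in E to I. Controls B to D stood above all sgCcnd1 libraries, and A lay among the latter. The means were 16.9 ± 6.45 (SD, n = 4) and 8.41 ± 4.87 (SD, n = 5), a log2 difference of -0.98 (SE 0.42, adjusted p = 0.426 by limma). Ccna2, cyclin A2, which acts in S phase and G2, had 14.8, 29.8, 27.2 and 10.7 in A to D and 19.1, 17.0, 14.7, 10.0 and 14.2 in E to I, with wide overlap. Its log2 fold change was -0.35 (SE 0.32, adjusted p = 0.705 by limma), -0.14 without B, -0.19 without C, -0.22 without H and -0.61 without D. Ccnb2, a B-type cyclin, was at -0.40 (adjusted p = 0.698 by limma), -0.69 without A, -0.21 without B and -0.25 without I.

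Ccnb1, the main mitotic cyclin, was below the testing level with 39 reads in all. Its values were 2.46, 12.3, 5.63 and 4.86 normalized counts in A to D and 3.81, 2.69, 2.94, 0 and 1.42 in E to I. B was the highest and the groups overlapped through A. In a limma fit without a level filter its log2 fold change was -1.22 (adjusted p = 0.462 by limma), and 23.4% of its 50-base stretches also occur in transcripts of other genes, pseudogenes among them, so its reads are uncertain. Cdc25c, which activates Cdk1, had 7 reads over all 9 libraries.

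The Cdk1-binding proteins Cks2 and Cks1b, the members with the most reads in this group, had fold changes near 0. Cks2 had 86.1, 146, 172 and 199 normalized counts in A to D and 149, 149.5, 172, 138 and 140.5 in E to I. A was the lowest library and D the highest, with all sgCcnd1 libraries between them. Its log2 fold change was 0.05 with a 95% interval from -0.38 to 0.48 (adjusted p = 0.948 by limma), and leaving out 1 library gave -0.19 (without A) to 0.21 (without D). Of its 50-base stretches, 29.7% occur in other genes' transcripts, such as Gm15452. Cks1b had 38.1, 45.6, 46.0 and 81.6 in A to D and 46.5, 53.7, 33.3, 52.0 and 48.3 in E to I, where D stood apart. Its log2 fold change was -0.13 with an interval from -0.61 to 0.36 (adjusted p = 0.866 by limma), turning to 0.097 without D.

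**Figure D4:**
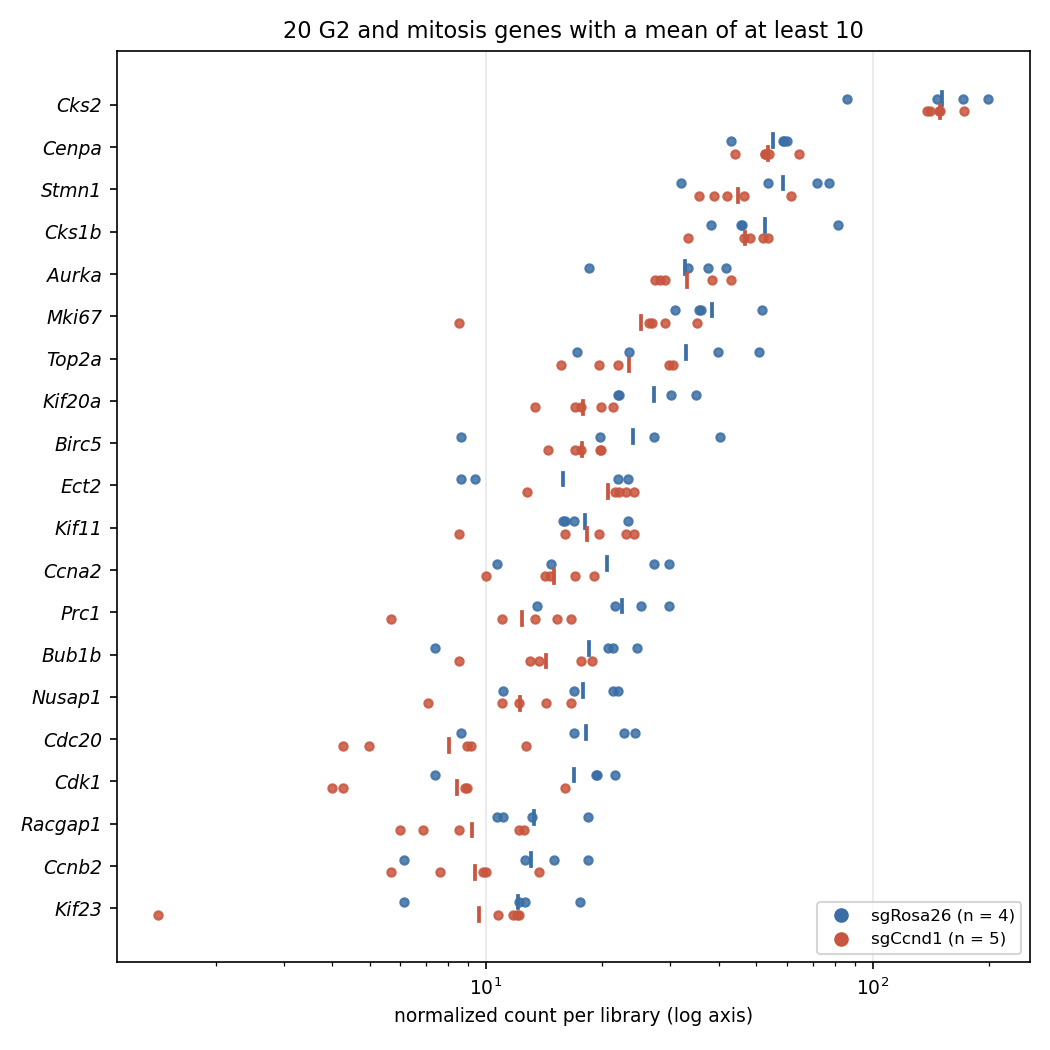
Normalized counts of the 20 tested genes, one point per library on a log axis, with blue for sgRosa26 and red for sgCcnd1 and a short line at each group's mean. Kif20a alone shows no overlap between groups.

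Mitotic kinases and checkpoint genes were tested for 3 of 7 members, with 0 called and a median log2 fold change of -0.24. Aurka, the kinase that matures centrosomes, had 18.4, 33.3, 37.5 and 41.8 normalized counts in A to D and 28.2, 43.0, 27.4, 29.0 and 38.3 in E to I. The sgCcnd1 values lay inside the control range but for F, and the log2 fold change was 0.05 with an interval from -0.48 to 0.59 (adjusted p = 0.953 by limma). Leaving out 1 library gave -0.19 (without A) to 0.19 (without D). Birc5, survivin, a part of the chromosomal passenger complex, had 8.61, 40.3, 19.7 and 27.2 in A to D and 14.5, 19.7, 17.6, 17.0 and 19.9 in E to I. The controls ran from the lowest to the highest of all libraries, and the log2 fold change was -0.24 (adjusted p = 0.838 by limma). It was -0.63 without A, -0.12 without D and 0.068 without B. Bub1b, a spindle checkpoint kinase, was at -0.27 (adjusted p = 0.805 by limma), -0.64 without A, -0.10 without B, -0.17 without D and -0.11 without I.

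The other 4 of these genes were below the testing level. Aurkb, the catalytic part of the passenger complex, had 8.10 ± 3.28 normalized counts in sgRosa26 (SD, n = 4) and 3.44 ± 2.01 in sgCcnd1 (SD, n = 5). Plk1, the Polo-like kinase, had 12.0 ± 6.46 and 6.91 ± 4.14. Bub1 and Ttk, checkpoint kinases, had 21 and 20 reads over all libraries.

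Cdc20, which activates the anaphase-promoting complex (chr4:118432901-118437343, GRCm38), had the smallest p of the 20 tested members. Its values were 8.61, 22.8, 16.9 and 24.3 normalized counts in A to D and 9.15, 8.95, 12.7, 5.0 and 4.26 in E to I. Controls B to D lay above every sgCcnd1 library, and A lay below 3 of them. The means were 18.1 ± 7.11 (SD, n = 4) and 8.02 ± 3.45 (SD, n = 5), a log2 difference of -1.08 (SE 0.38, 95% interval -1.91 to -0.26, adjusted p = 0.338 by limma). Of its 50-base stretches, 10.6% occur in other genes' transcripts. Ube2c, the ubiquitin carrier of the same complex, was below the testing level at 12.0 ± 8.16 and 7.0 ± 1.73 normalized counts.

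Among chromosome and kinetochore genes (3 of 5 tested, 0 called, median log2 fold change -0.39), Mki67, which coats mitotic chromosomes, lies at chr7:135689784-135716450 (GRCm38). It had 30.7, 51.7, 35.7 and 35.9 normalized counts in A to D and 35.1, 26.9, 26.4, 29.0 and 8.52 in E to I. In sgCcnd1, E lay within the control range and the other 4 libraries below it. The means were 38.5 ± 9.12 (SD, n = 4) and 25.2 ± 9.93 (SD, n = 5), a log2 difference of -0.70 (SE 0.34, adjusted p = 0.484 by limma). It was -0.36 without I.

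Top2a, which untangles DNA, had 17.2, 50.8, 23.5 and 39.8 normalized counts in A to D and 29.7, 30.4, 19.6, 22.0 and 15.6 in E to I. Library B was highest and I lowest, with most others mixed, and the log2 fold change was -0.39 (SE 0.31, adjusted p = 0.669 by limma). It was -0.65 without A and -0.15 without B. Cenpa, the histone variant that marks centromeres, had 43.0, 58.7, 59.1 and 60.2 in A to D and 52.6, 52.8, 64.6, 54.0 and 44.0 in E to I. Its within-group variance was 0.944 times that of counting alone. The log2 fold change was -0.04 with an interval from -0.39 to 0.30 (adjusted p = 0.947 by limma), and leaving out 1 library gave -0.15 (without A) to 0.026 (without I). Cenpe, a kinetochore motor, and Cenpf, a kinetochore protein, had 36 and 45 reads over all libraries.

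Spindle motors and microtubule proteins were tested for 3 of 7 members, with 0 called and a median log2 fold change of -0.33. Stmn1 had 32.0, 77.1, 53.5 and 71.9 normalized counts in A to D and 46.5, 42.1, 61.7, 39.0 and 35.5 in E to I. The groups overlapped through A and G, and the log2 fold change was -0.33 (adjusted p = 0.658 by limma). It was -0.59 without A, -0.17 without B and -0.20 without D. Its transcripts share 18.9% of 50-base stretches with other genes, mostly Gm11223. Kif11, the motor that pushes spindle poles apart, had 16, 15.8, 16.9 and 23.3 in A to D and 16, 24.2, 19.6, 23 and 8.52 in E to I. The lowest and highest values were both in sgCcnd1, and the log2 fold change was -0.04 (adjusted p = 0.970 by limma), from -0.16 (without F) to 0.19 (without I) with 1 library left out. Nusap1, a spindle-assembly protein, was at -0.51 (adjusted p = 0.544 by limma).

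Hmmr, a spindle-associated protein also known as a hyaluronan receptor, was below the testing level but had separate groups; it is given here because its values had been seen. It had 4.92, 7.89, 9.39 and 8.74 normalized counts in A to D and 3.81, 1.79, 1.96, 1.0 and 1.42 in E to I, from 43 reads in all. Every sgCcnd1 library lay below every control, A included. Without a level filter its log2 fold change was -1.58 (adjusted p = 0.262 by limma). Tpx2, which activates Aurora A on the spindle, had 13.4 ± 6.94 and 5.73 ± 2.89 normalized counts and a log2 fold change of -1.05 in the same fit (adjusted p = 0.464 by limma).

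Central spindle and cytokinesis genes were tested for 5 of 6 members, with 0 called, and 2 of the 5, Racgap1 and Kif23, passed through the control level. Kif20a, a motor of the central spindle, had 22.1, 21.9, 30.0 and 35.0 normalized counts in A to D and 19.8, 13.4, 17.6, 17.0 and 21.3 in E to I. It was the 1 tested member whose groups did not overlap, 1 of 20 against 1.97% of all genes tested, and the gap between I and B was small. The log2 fold change was -0.57 (SE 0.22, adjusted p = 0.375 by limma). Kif20a shares 25.2% of its 50-base stretches with its neighbour Cdc23, so reads may be shared. Cdc23 itself had 175 ± 18.6 and 189 ± 19.5 normalized counts, a log2 fold change of 0.12 (adjusted p = 0.719 by limma).

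Prc1, which bundles microtubules at the spindle midzone, had 13.5, 29.8, 21.6 and 25.2 normalized counts in A to D and 15.2, 13.4, 16.6, 11 and 5.68 in E to I. Controls B to D again lay above all sgCcnd1 libraries, and A among them. The means were 22.5 ± 6.89 (SD, n = 4) and 12.4 ± 4.31 (SD, n = 5), a log2 difference of -0.84 (SE 0.33, adjusted p = 0.382 by limma). Racgap1, part of the centralspindlin complex, was at -0.51 and its partner motor Kif23 at -0.45 (limma adjusted p = 0.556 and 0.769). Kif23 was at -0.72 without A and turned to 0.027 without I. Ect2, the exchange factor that starts ring contraction, had the highest log2 fold change of the tested members, 0.47 (adjusted p = 0.624 by limma), and 0.24 without A or 0.28 without C. Anln, anillin, the scaffold of the ring, was below the testing level at 13.8 ± 5.11 and 6.83 ± 4.07.

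Both transcription factors were below the testing level. Foxm1 had 8.61, 13.1, 8.45 and 12.6 normalized counts in A to D and 10.7, 8.95, 10.8, 4.0 and 4.26 in E to I. H and I were lowest and the other sgCcnd1 libraries lay within the control range. Without a level filter its log2 fold change was -0.50 (adjusted p = 0.697 by limma). Mybl2, B-Myb, had 5.71 ± 3.44 and 6.56 ± 4.5 normalized counts.

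Over all 16 members below the testing level, 14 had a lower mean in sgCcnd1, with 7 to 90 reads per gene over all libraries. In the fit without a level filter 0 of all 36 passed an adjusted p of 0.05, and 29 had a log2 fold change below 0, against 50.6% of genes in that fit. At an unadjusted limma p under 0.05 there were 5 of the 16, Hmmr, Aurkb, Ccnb1, Tpx2 and Anln, all with lower means, where 9.36% of all 19522 genes in that fit had such a p. Groups did not overlap in 2 of all 36 members, Hmmr and Kif20a, against 1.64% of genes without a filter. Without A this count was 12 of 36, of which 8 were tested (8 of 20, against 3.63% of genes tested without A). Of these 8, Cdk1, Cdc20 and Kif23 passed through the control level. Leaving out any other single library gave 2 or 3 of 36. Of the tested members it was 1 of 19 without B (2.66%), 2 of 21 without C (3.26%), 1 of 20 without D (3.87%), 2 of 21 without E (4.25%), 1 of 20 without F (2.86%) and 1 of 21 each without G (2.50%), H (2.29%) or I (2.51%).

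**Figure D5:**
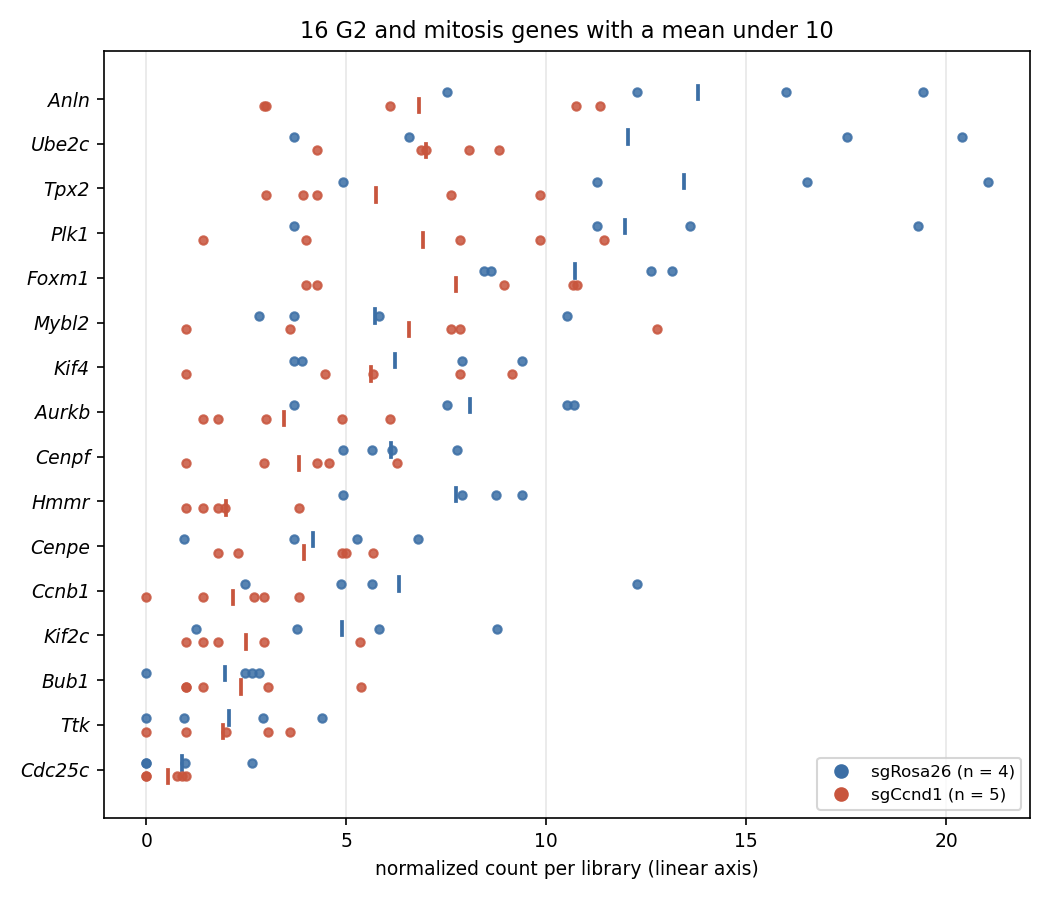
Normalized counts of the 16 genes with a mean under 10, one point per library on a linear axis, with blue for sgRosa26 and red for sgCcnd1 and a short line at each group's mean. Hmmr alone shows no overlap, and Cdc25c, Ttk and Bub1 lie near 0 in both groups.

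Another 69 genes of G2 and mitosis, 28 of them tested, gave 0 calls and a median log2 fold change of -0.08, with 19 below 0. At an unadjusted limma p under 0.05 there were 2, both lower (all genes: 5.74%). Cdca3, which helps trigger mitotic entry, had 20.9, 28.0, 27.2 and 35.0 normalized counts in A to D and 9.15, 19.7, 15.7, 13.0 and 19.9 in E to I. Its groups did not overlap (lower in 1.97% of all genes tested), and the log2 fold change was -0.83 (adjusted p = 0.306 by limma). Gtse1, a microtubule-binding protein of G2, passed through the control level (17.6 ± 4.99 and 8.52 ± 3.37 normalized counts) and was at -1.02 (adjusted p = 0.347 by limma). The gene of the list with the most reads, the condensin subunit Ncaph2, was at 656 ± 48.9 and 659.5 ± 42.6 normalized counts (log2 fold change 0.01, adjusted p = 0.979 by limma).

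Subunits and regulators of the anaphase-promoting complex, 17 of 17 tested, gave 0 calls, 0 at an unadjusted limma p under 0.05 (all genes: 11.0%) and a median log2 fold change of -0.02. Their smallest p were those of Anapc15 (-0.21) and Anapc1 (0.17), with limma adjusted p of 0.567 and 0.633. Anapc15 was at -0.31 without A and -0.13 without B, and Anapc1 at 0.29 and 0.071. Anapc5, with the most reads, was at 0.03 (adjusted p = 0.931 by limma). The list summed to 5492.5 to 5787 normalized counts in sgRosa26 and 5448 to 5899.5 in sgCcnd1.

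DREAM and MuvB subunits, pocket proteins and E2F factors, 18 of 19 tested, gave 0 calls and a median log2 fold change of 0.15. At an unadjusted limma p under 0.05 there were 3, all higher (all genes: 5.22%). E2f8, an atypical E2F that represses cell cycle genes, had 39.3, 47.3, 84.5 and 81.6 normalized counts in A to D and 110.5, 92.2, 160, 335 and 101 in E to I. Every sgCcnd1 library lay above every control, H furthest, and the log2 fold change was 1.22 (SE 0.35, adjusted p = 0.282 by limma). Without H it was 0.91 (adjusted p = 0.484 by limma). Groups separated in either direction in 3.89% of all genes tested. Rbbp4, a histone-binding subunit of MuvB, was at 0.23 (adjusted p = 0.389 by limma).

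S phase and replication genes, 29 of 33 tested, gave 0 calls and a median log2 fold change of 0.05. At an unadjusted limma p under 0.05 there were 2, both higher (all genes: 5.22%). These were Mcm10, which loads replication proteins (0.42, adjusted p = 0.418 by limma), and Pola1, a catalytic subunit of DNA polymerase alpha (0.38, adjusted p = 0.433 by limma). Mcm10 was at 0.26 without A. The difference between this list and the mitotic members was not tested.

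Markers of other dividing or passenger cells are given beside these values. T and NK cell genes had 6 of 9 tested, and 6 of 6 had lower means with an unadjusted limma p under 0.05 (all genes: 5.74%), 0 of them past the adjusted threshold (smallest adjusted p 0.294). Of these 6, Cd3g passed the level for testing through the controls. Their sum was 128 to 303 normalized counts in sgRosa26 and 56.0 to 202 in sgCcnd1, and none of the 9 was at 0 in all libraries. B and plasma cell genes (1 of 6 at that unadjusted p, Mzb1, lower and likewise passed through the controls) summed to 228 to 451 and 171 to 412, and neutrophil genes (1 of 3 tested, lower) to 118 to 204 and 77.0 to 128. Of these lists, Ly6g had reads in 1 library only. Kupffer cell genes (0 of 7) summed to 2320 to 3144 and 2148 to 2810, and erythroid genes (0 of 4 tested) to 1163 to 2443 and 1895 to 2189. Stellate cell genes (3 of 6 at that unadjusted p, lower) summed to 3009.7 to 5033 and 2695 to 4092, with means of 4106 ± 843 (SD, n = 4) and 3285 ± 609 (SD, n = 5). Cholangiocyte genes (1 of 5, lower) summed to 928 to 1906 and 749.7 to 1165, with means of 1314 ± 423 and 1021 ± 168. Endothelial genes (0 of 5) summed to 1686 to 2544.5 and 1918.5 to 2709, with means of 2181 ± 364 and 2168 ± 325. The part of any of these cells in the members' values was not tested.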

How the data were processed

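Poly(A) RNA of mouse liver was sequenced in 9 libraries. The deposited table gives normalized counts, a signal that is never negative. Per the submitters' processing notes, Trim Galore 0.6.7, HISAT2 2.2.1, featureCounts 2.0.3 and DESeq2 2.11.40.8 were used with mm10 or GRCm38; the annotation and use of strand are not given in the sources used here. In each library 100% of the deposited signal values were whole multiples of the value of 1 read, within 0.001 reads, so reads could be recovered. Columns name a group but no replicate number.

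Genes whose mean over the 9 libraries reached 10 (12993) were tested on log2(normalized count + 1), which understates changes of low genes, with limma 3.58.1 in R 4.3.3 (eBayes with trend, two-sided, Benjamini-Hochberg over all genes, threshold 0.05). edgeR 4.0.16 and DESeq2 1.42.0, run on recovered reads, called 1 and 104 genes, and 0 and 38 without library H. Procedures were tested on simulated data. Alternatives were pseudocounts, level filters, scalings, count models and leaving out each library. Stretches of 50 bases were compared between GENCODE M21 transcripts. Values in every library are given for the members with the most reads by role and the 4 with the smallest p. They are also given for 6 known genes of the pathway and tested members without overlap. From other lists, genes were named by the smallest p and the most reads, with values in every library for Cdca3 and E2f8 only. Members, lists and rules were chosen with earlier results of these data known. Figures used matplotlib 3.10.9.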

Additional observations from a re-analysis of the deposited data

Results flagged for a closer look

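Of 94 groups of values examined (each member, Ccnd1, the members' sum and each marker list in each group), 6 had a library far from the others of its group, where chance gives about 4.7. Among controls, library A stood low for Cdk1 (7.38 normalized counts against 19.3 to 21.6) and Cenpa (43.0 against 58.7 to 60.2), and library D stood high for Kif11 (23.3 against 15.8 to 16.9). Library D also had 0 reads of Bub1, where the other controls had 2.46 to 2.82 normalized counts; a count of 0 allows up to 2.91 at the depth of D. In sgCcnd1, library I stood low for Ect2 (12.8 against 21.5 to 24.2) and Kif23 (1.42 against 10.7 to 12.2).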

How the results depend on the processing

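No member passed an adjusted p of 0.05 under any alternative tried. Some alternatives (count models without library H, edgeR without a level filter, members with both group means of at least 10, separation of groups with a library left out) were chosen after seeing the data. The median log2 fold change of the tested members was below 0 in every alternative except a minimum mean of 100, where Cks2 alone remained (0.051); leaving out 1 library gave -0.64 (without A) to -0.17 (without B), and quantile normalization -0.22. A minimum mean of 1 or 100 left 35 or 1 members. Ccnd1 was at -1.11 to -0.96 with 1 library left out, and its limma adjusted p then exceeded 0.05 without B (0.0852), D (0.0559), F (0.0589), H (0.0611) or I (0.0624); edgeR with TMM without H gave -1.02 (adjusted p 0.0559). Of 437 values of single members under alternatives, 411 kept their sign and 26 reversed, in 7 members. Leaving out 1 library gave ranges of -0.63 to 0.068 (Birc5), -0.15 to 0.026 (Cenpa), -0.16 to 0.19 (Kif11), -0.19 to 0.19 (Aurka), -0.26 to 0.097 (Cks1b), -0.19 to 0.21 (Cks2), -0.72 to 0.027 (Kif23), -0.038 to 0.050 (Ncaph2) and -0.024 to 0.099 (Anapc5). Quantile normalization gave 0.047 for Cenpa, 0.13 for Kif11, -0.028 for Ncaph2 and -0.025 for Anapc5, and 75th percentile scaling -0.026 for Ncaph2 and -0.0042 for Anapc5. edgeR with TMM gave 0.035 for Kif11, -0.016 for Aurka, -0.027 for Cks2 and -0.0042 for Ncaph2. edgeR with RLE gave 0.039, -0.013 and -0.023 for the first 3 of these, DESeq2 0.037, -0.011 and -0.021, and edgeR without a filter 0.048, -0.0050 and -0.016. Without H, Ncaph2 was at -0.026 in edgeR and -0.021 in DESeq2. The causes were not tested. Depth limits these results: 3 reads, the limit that a count of 0 allows, equal 2.29 to 4.26 normalized counts, and 16 members had means under 10. No paired analysis was possible because the table's columns carry no replicate number of the labels.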
